A study of Chlamydomonas reinhardtii with 90 samples.

Results

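Early recovery from moderate heat was examined in the green alga *Chlamydomonas reinhardtii*: RNA of cultures 4 h into recovery at 25°C, after 24 h at 35°C, was set against RNA of cultures of the same treatment sampled before the heat. The comparison was chosen by its label and took every gene, so it rests on 6 of 90 libraries. These are 3 at recovery 4 h (replicates A, B and C) and 3 pre-heat (A, B and C). Of 17741 genes counted, 15541 had enough reads and were tested. All cultures were strain CC-1690 (21gr, mt+), a wild type, grown in photobioreactors in acetate-containing TAP medium under constant light, with the cell density held by automatic dilution; the pre-heat libraries come from the same temperature, 25°C, to which the recovering cultures had returned. The other 84 libraries cover the remaining time points of the 35°C treatment and all 15 of a parallel 40°C treatment in other photobioreactors, with 3 biological replicates each. They shared one estimate of the spread between replicates with the 6 libraries, and some of them gave further comparisons with recovery 4 h.

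Chlamydomonas cells in acetate medium and light use both photosynthesis and acetate. They fix CO2 in the Calvin-Benson cycle, raise the CO2 supply of Rubisco through an inducible carbon concentrating mechanism of bicarbonate transporters and carbonic anhydrases, and turn acetate into sugars through the glyoxylate cycle and gluconeogenesis. The cells divide by multiple fission, in which rounds of DNA synthesis, mitosis and chloroplast division follow each other after a growth phase, and transcripts of replication, cyclin and division proteins accumulate shortly before and during these rounds.

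The 3 libraries at recovery 4 h held 23906405 (A), 21620757 (B) and 22301488 (C) counted reads, and the pre-heat libraries held 24178860, 18558841 and 20469733. Values for each library are CPM, counts brought to a common library total with TMM factors, which set the bulk of genes equal between libraries. CPM are not divided by gene length, so they compare libraries for 1 gene and not genes with each other. Fold changes are edgeR quasi-likelihood estimates on the log2 scale, recovery 4 h over pre-heat, and a gene was called when its Benjamini-Hochberg adjusted p was under 0.05, its log2 fold change was beyond 1 in size and its mean TPM (the deposited length-scaled abundance) differed by 1 or more. Because the libraries are bulk RNA scaled to a common total, fewer cells that express a gene and less of its RNA per cell cannot be told apart.

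The labels give a replicate letter and do not state whether a letter follows 1 culture through time. Culture A here means the libraries with that letter. Culture A stood apart from B and C in both groups. The spread of counts between B and C was 6 times that of counting alone at recovery 4 h (chi-square per degree of freedom), against 5.869 pre-heat, whereas pairs with A reached 35.17 and 37.53 at recovery 4 h and 20.93 and 33.22 pre-heat. Of 11078 genes with a mean of 5 CPM or more at recovery 4 h, A lay over 2-fold above both B and C in 151 and over 2-fold below both in 21, whereas B lay outside in this way in 6 and C in 1. Among the genes called, A lay closest to the pre-heat mean in 79.3% of those that rose and in 82.0% of those that fell. Counts are therefore also given without culture A in both groups where they move by over 1.5 times. The gamete genes *GAS28*, *GAS30*, *GAS31*, *FUS1* and *GSP1* are markers of the other cell type that a vegetative culture of 1 mating type could hold. None of these 5 was called by edgeR with TMM over all libraries. By that fit 3 had an adjusted p under 0.05, and 1 was called by DESeq2 and 1 by limma on TPM. None of the 5 genes was at 0, and their summed level was 1190 CPM in A, 586 in B and 509 in C at recovery 4 h, against 563, 566 and 454 CPM pre-heat. Their median log2 fold change was −0.10 (0.0 with library size alone), but single genes ran from −2.49 to 2.08. *GAS31* was called higher by edgeR with library size alone (1.13) and with DESeq2 size factors (1.04). It was also called higher without pre-heat B (1.05), recovery B (1.03) or recovery C (1.14). *GAS28* (Cre11.g481600), a hydroxyproline-rich wall glycoprotein, was at 547 CPM in A and 95.6 and 98.6 in B and C at recovery 4 h, against 304, 283 and 210 pre-heat. The part of the gamete genes in the results was not tested.

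At recovery 4 h, 1100 genes were called against pre-heat, 7.08% of those tested: 579 rose (3.73%) and 521 fell (3.35%). Genes that fell did so further. Over 4-fold changes numbered 19 upward and 104 downward, over 8-fold changes 5 upward and 32 downward, and called changes ran from 3.61 to −5.51. Genes that fell also carried more RNA, holding 6.43% of counted reads on average at recovery 4 h against 15.2% pre-heat, whereas genes that rose held 3.73% against 1.37%. In CPM the 3 recovery libraries lay above all 3 pre-heat libraries in 576 of the 579 genes that rose and below them in 516 of the 521 that fell; over all genes tested 51.7% had groups that did not overlap, 26.9% with recovery higher and 24.8% with recovery lower. Without culture A, 1400 genes were called (9.01%; 747 or 4.81% higher and 653 or 4.2% lower), of which 1035 were among the 1100.

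The balance of the directions depended on the scaling and on the TPM criterion. With TMM 52.6% of calls were higher at recovery 4 h, and over all genes the median change was 0.01 on the log2 scale. With library size alone the median was 0.15, a shift of 0.14, and 1250 genes were called (8.04%), 845 higher (5.44%) and 405 lower (2.61%), or 67.6% higher; all 579 genes called higher and 405 of the 521 called lower stayed called. On the authors' TPM, tested by limma on log2(TPM + 1), 1324 genes were called (8.52%), 1161 higher (7.47%) and 163 lower (1.05%), or 87.7% higher. *LHCBM1* (Cre01.g066917), a major light-harvesting protein of photosystem II, held 0.617, 0.63 and 0.663% of counted reads in A, B and C at recovery 4 h, against 1.2, 1.35 and 1.36% pre-heat. It held 21.0, 21.7 and 22.8% of all TPM at recovery 4 h, against 33.7, 36.6 and 36.9% pre-heat, since the gene length behind its TPM is 0.852% of that of the median gene. Since TPM are shares of a fixed sum, the fall of 1 such gene raises those of others. The median gene was 0.48 higher on the log2 scale in mean TPM at recovery 4 h (1.4-fold), and 78.2% of genes were higher; with *LHCBM1* left out of the sum the median was 0.2, so this gene held part of the shift. With *LHCBM1* left out, limma called 923 genes (5.94%), 591 higher (3.8%) and 332 lower (2.14%). The TMM fit with no TPM criterion called 772 genes higher and 1102 lower, or 41.2% higher. With the criterion on TPM scaled without *LHCBM1* it called 597 higher and 691 lower, or 46.4% higher. Values by library are therefore given in CPM.

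**Figure D1:**
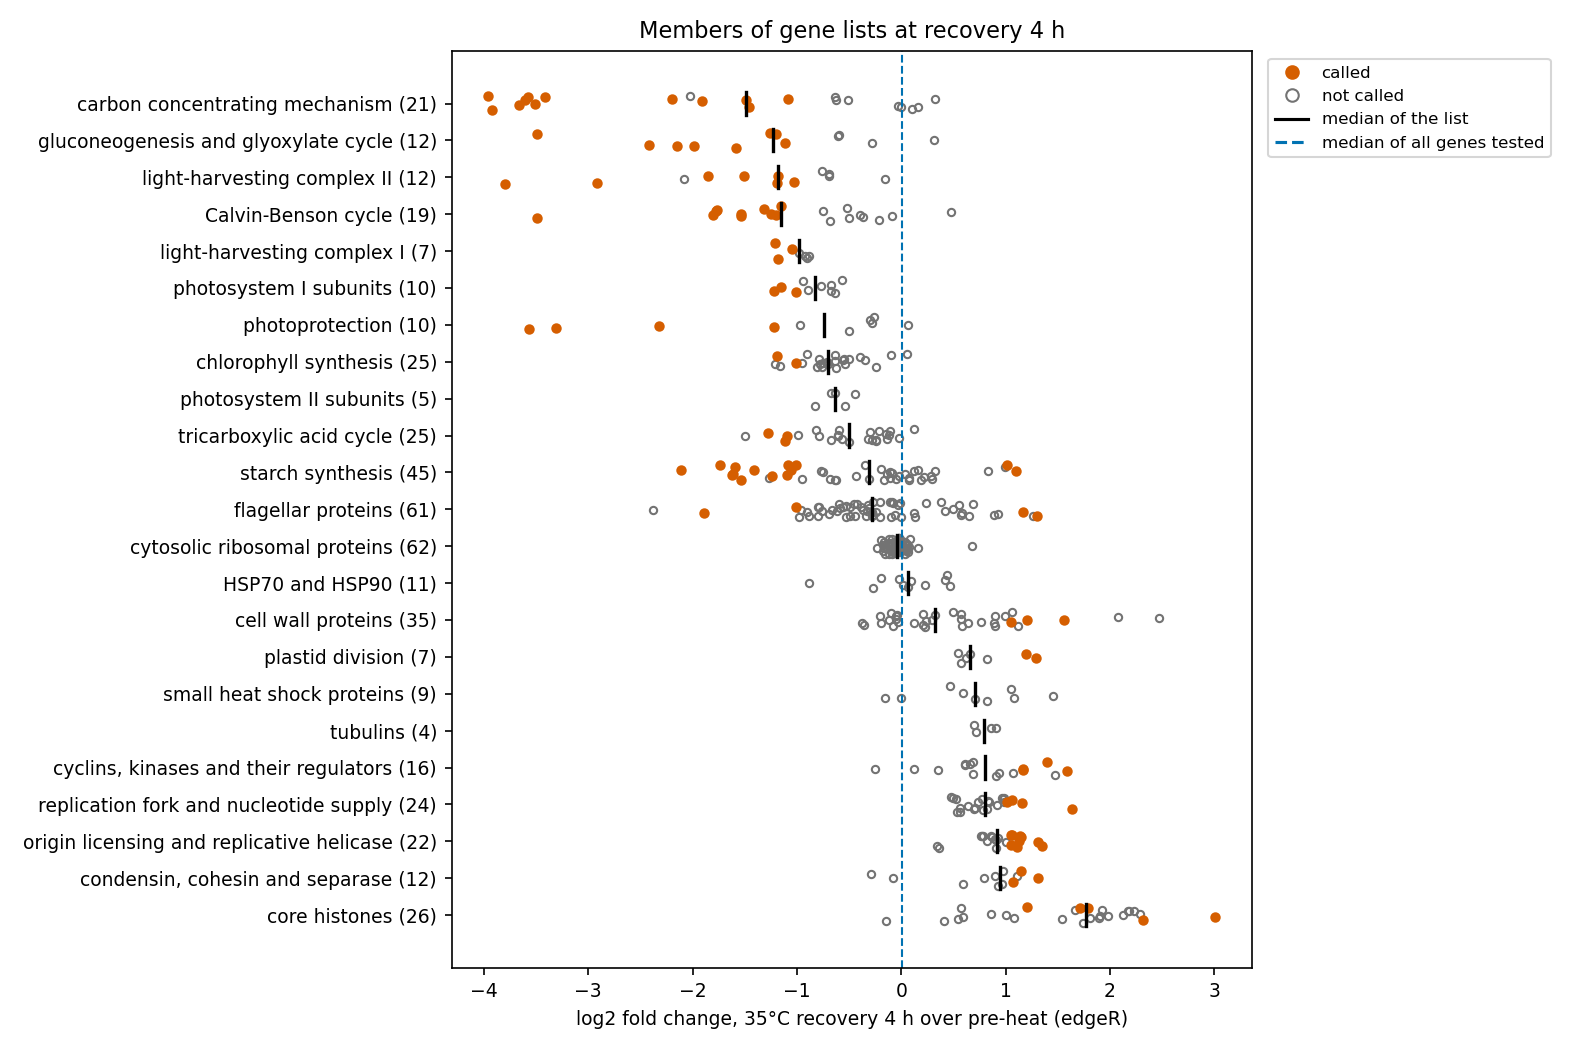
Log2 fold change (recovery 4 h over pre-heat, edgeR) of each tested member of 23 gene lists, with the number of members in parentheses. Filled points are called genes, the black bar is the median of the list and the dashed line the median of all genes tested (0.01); lists of carbon assimilation and light harvesting lie left of the line and lists of DNA replication and division right of it.

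The carbon concentrating mechanism had the lowest median of the lists. Of its 21 members tested, 12 fell and none rose (3.35% of all genes fell). The median log2 fold change was −1.49 against 0.01 for all genes. In 14 members, against 24.8% of all genes, all recovery libraries lay below all pre-heat libraries. The summed level of the list was 2660, 1390 and 1660 CPM in A, B and C at recovery 4 h, against 7620, 5680 and 5270 CPM pre-heat. The genes that fell furthest encode the inducible inorganic carbon transporters and carbonic anhydrases.

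*LCIA* (Cre06.g309000), a bicarbonate channel of the chloroplast envelope, had 17.2, 2.93 and 3.74 CPM at recovery 4 h, against 237, 73.6 and 61.4 CPM pre-heat. Its log2 fold change was −3.96 ± 0.843 (SE, n = 3 each; edgeR adjusted p = 0.000174). *HLA3* (Cre02.g097800), a bicarbonate transporter of the plasma membrane, had 5.76, 3.57 and 4.12 CPM, against 114, 26 and 23.5 CPM pre-heat, a log2 fold change of −3.61, or −2.46 without the pre-heat library of A and −2.69 without culture A. Culture A was the highest of its group for both genes, at both time points, and the groups did not overlap.

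*LCI1* (Cre03.g162800), a plasma membrane protein of carbon uptake, had 13.4, 1.89 and 2.84 CPM at recovery 4 h, against 154, 41.2 and 34.3 CPM pre-heat (log2 fold change −3.66, edgeR adjusted p = 0.00585). Without the pre-heat library of culture A this call was lost (log2 fold change −2.64, edgeR adjusted p = 0.0604). *CCP1* (Cre04.g223300), a carrier protein induced in low CO2, had 8.19, 2.25 and 3.97 CPM, against 98.4, 36.8 and 29.7 CPM pre-heat, and fell by 3.51 on the log2 scale. The sizes of these falls moved with culture A: *LCIA* had a log2 fold change of −3.08 without its pre-heat library and −5.21 without its recovery library, *LCI1* −2.64 and −5.01, and *CCP1* −2.79 and −4.14.

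Carbonic anhydrases interconvert CO2 and bicarbonate. *CAH1* (Cre04.g223100), the periplasmic form, had 400, 49.8 and 66.7 CPM at recovery 4 h, against 3060, 1300 and 1120 CPM pre-heat (log2 fold change −3.41, edgeR adjusted p = 0.00118), a log2 fold change of −2.81 without the pre-heat library of A and −4.97 without the recovery library of A. The mitochondrial forms *CAH4* (Cre05.g248400) and *CAH5* (Cre05.g248450) fell by 3.58 and 3.92 on the log2 scale; *CAH4* had 7.11, 2.25 and 4.16 CPM, against 84.9, 38 and 38.6 CPM pre-heat. For *CAH5* the same 2 leave-outs gave −3.27 and −4.63. *CAH4* and *CAH5* are near-identical neighbours, and only reads with a single locus were counted, so the split of reads between them is uncertain. *CAH3*, the carbonic anhydrase of the thylakoid lumen, differed by −0.63 and was not called.

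Smaller falls were found in the soluble proteins around the pyrenoid, named here after their values were seen. *LCIB* (Cre10.g452800) had 651, 254 and 335 CPM at recovery 4 h, against 1530, 1670 and 1470 CPM pre-heat, and its partner *LCIC* had 399, 199 and 287 CPM against 780, 865 and 834. The gene of the regulator *CCM1* (Cre02.g096300, the zinc-finger protein that low-CO2 induction requires) was not called, at 157, 135 and 125 CPM against 130, 135 and 124, whereas *LCR1* (Cre09.g399552), a Myb factor downstream of it, fell to 13.6, 2.37 and 3.97 CPM, against 42.3, 25.5 and 23.6. In the plot of the list by library, the groups overlap for most members at the right end, *CCM1* among them.

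**Figure D2:**
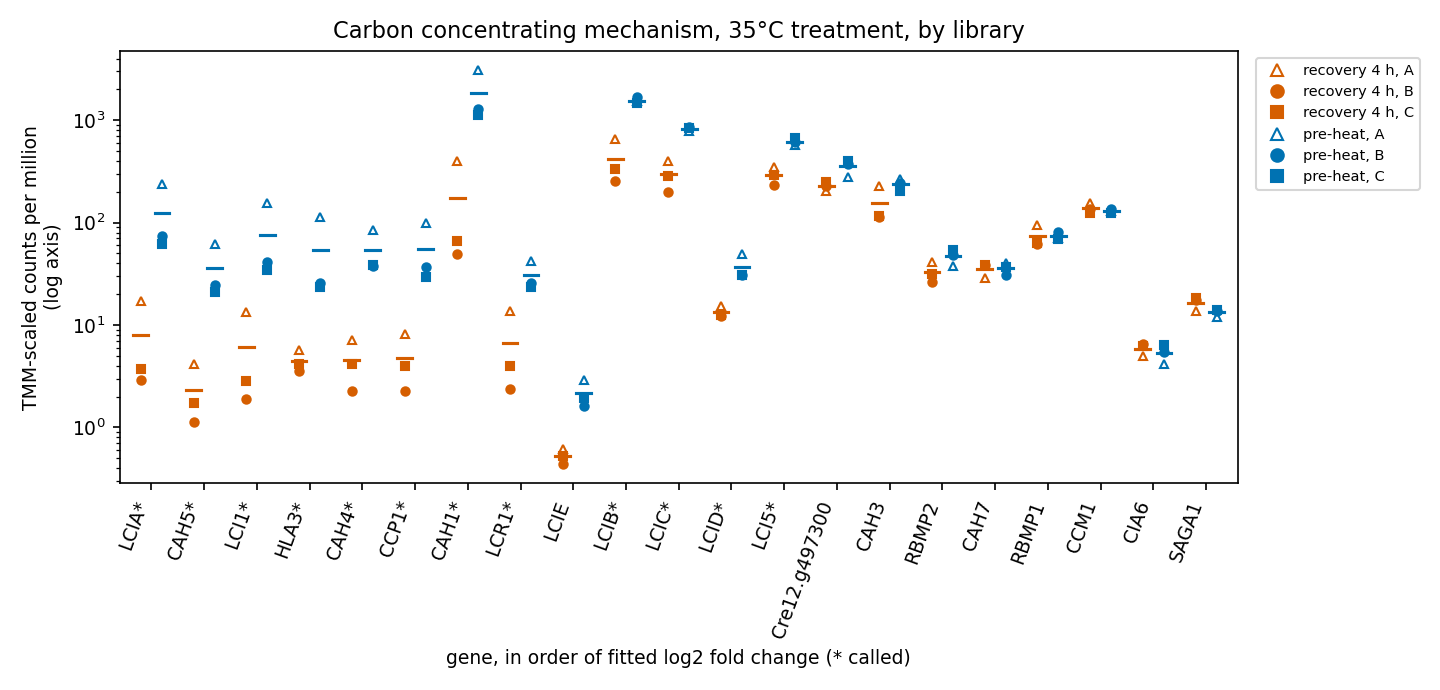
TMM-scaled CPM (log axis) of the 21 tested genes of the carbon concentrating mechanism in each of the 6 libraries, recovery 4 h in orange and pre-heat in blue, with the group mean as a bar and called genes starred. From *LCIA* to *LCI5* all 3 recovery libraries sit below all 3 pre-heat libraries, and culture A (open triangles) is the highest recovery library for most of these genes.

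Light-harvesting proteins, which bind the antenna chlorophyll of the photosystems, also fell. Of 12 tested genes of light-harvesting complex II, 7 fell and none rose, and the median was −1.18. All 12, against 24.8% of all genes, had every recovery library below every pre-heat library. Their summed level was 32100, 29500 and 29300 CPM at recovery 4 h, against 65400, 70400 and 66400 CPM pre-heat. Here the 3 cultures lay close together. Of 7 genes of light-harvesting complex I, 3 fell and none rose, the median was −0.98, and again no member overlapped between the groups. Without the recovery library of A 5 fell.

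*LHCBM4* (Cre06.g283950), one of these antenna proteins, fell furthest: it had 74.7, 72.1 and 77.2 CPM at recovery 4 h, against 1160, 1040 and 921 CPM pre-heat (log2 fold change −3.80 ± 0.287 (SE, n = 3 each), edgeR adjusted p = 2e-16). *LHCBM8* (Cre06.g284250) had 31.3, 42.1 and 41 CPM, against 324, 303 and 238 CPM pre-heat, a log2 fold change of −2.92. The more abundant *LHCBM2* (Cre12.g548400) and *LHCBM6* (Cre06.g285250) fell by 1.85 and 1.51. *LHCBM1* itself had 5690, 5460 and 5590 CPM, against 12100, 13100 and 12700 CPM pre-heat (log2 fold change −1.18, edgeR adjusted p = 1.51e-08). Members of this family are similar in sequence, and reads that fit several of them were not counted, so their relative levels are uncertain.

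In light-harvesting complex I, *LHCA1* (Cre06.g283050) had 1560, 1350 and 1460 CPM at recovery 4 h, against 3090, 3400 and 3650 CPM pre-heat, and *LHCA4* (Cre10.g452050) had 1480, 1260 and 1280 CPM against 2830, 3180 and 3110. The log2 fold changes were −1.21 and −1.18. *LHCA5* differed by −1.05 with TMM, but by −0.91 with library size alone, where it was not called.

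Reaction centre subunits had fewer calls than the antennae. Of 10 photosystem I subunits 3 fell (median −0.83), among them *PSAN* (Cre02.g082500), at 570, 519 and 524 CPM at recovery 4 h against 1210, 1270 and 1270 pre-heat, and *PSAG* (log2 fold change −1.15). None of the 5 nucleus-encoded photosystem II subunits tested was called by edgeR, DESeq2 or limma on TPM (median −0.64). Of these 4 had an edgeR adjusted p under 0.05, but the lowest log2 fold change of the list was −0.83, short of the fold threshold. In all 5, against 24.8% of all genes, the recovery libraries lay below the pre-heat libraries. Of 7 nuclear genes of the cytochrome b6f complex and the ATP synthase 1 fell (median −0.63), as did 1 of 29 photosystem II assembly genes (median −0.49) and 2 of 8 genes of cyclic electron flow (median −0.56). With library size alone none of these 3 lists had a call. Without culture A the first and the second had 2, and without the pre-heat library of C the second had none. No member of these lists rose.

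Of 10 photoprotection genes 4 fell, with a median of −0.74. This median moved with single libraries, to −0.38 without the pre-heat library of A or the recovery library of B and to −1.44 without the recovery library of A, and was −1.17 without culture A. *LHCSR1* (Cre08.g365900), a stress-induced protein that dissipates excess light energy, had 2.51, 1.04 and 1.63 CPM at recovery 4 h, against 24.6, 16.4 and 20.8 CPM pre-heat, a log2 fold change of −3.57. The near-identical *LHCSR3.1* (Cre08.g367500) and *LHCSR3.2* fell by 3.31 and 2.32, and the log2 fold change of *LHCSR3.1* was −2.66 without the pre-heat library of A and −4.28 without the recovery library of A. For *LHCSR3.2* the call was lost without the pre-heat library of culture A (log2 fold change −1.49, edgeR adjusted p = 0.131) and also without the recovery library of B or of C. Reads of this pair cannot be assigned with confidence. The fourth gene called was *LCI16* (Cre02.g143550), at 36.2, 18.4 and 22.7 CPM at recovery 4 h against 60.9, 60.3 and 59.2 pre-heat (log2 fold change −1.22).

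Of chlorophyll synthesis genes 8.0% fell and of carotenoid synthesis genes 5.0%, against 3.35% of all genes. In 21 of 25 chlorophyll synthesis genes, against 24.8% of all genes, all recovery libraries lay below all pre-heat libraries. Of these 25 genes 2 fell and none rose, and the median was −0.70. Without culture A 6 of them fell (5 without its recovery library alone), whereas 1 fell with library size alone and without pre-heat C, recovery B or recovery C. *CRD1* (Cre07.g346050), a subunit of the aerobic cyclase that forms the fifth ring of chlorophyll, had 228, 214 and 215 CPM at recovery 4 h, against 450, 563 and 489 CPM pre-heat (log2 fold change −1.19). *ALAD*, an early enzyme of tetrapyrrole synthesis, sat at the threshold, at −1.01 with TMM, −0.99 with the replicate letter as a block and −0.87 with library size alone, and was called only by the TMM fit without the block among these. Leaving out pre-heat B or C or recovery B or C also ended its call. Of 20 carotenoid synthesis genes 1 fell (median −0.44).

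The Calvin-Benson cycle, which fixes CO2 into sugar phosphates, had 10 of 19 tested genes lower and none higher, with a median of −1.15. *FBP1* (Cre07.g338451), fructose-1,6-bisphosphatase, had 17.7, 16.2 and 13.9 CPM at recovery 4 h, against 200, 161 and 174 CPM pre-heat (log2 fold change −3.49, edgeR adjusted p = 9.86e-10). It fell about as far in each culture. *PGK1* (Cre11.g467770), phosphoglycerate kinase, had 612, 404 and 407 CPM, against 1670, 1680 and 1600 CPM pre-heat, and *GAP3* (Cre01.g010900), glyceraldehyde-3-phosphate dehydrogenase, had 1410, 842 and 933 CPM, against 3470, 3710 and 3660. Their log2 fold changes were −1.80 and −1.77. The 2 Rubisco small subunit genes were not called: *RBCS1* differed by −0.75 and *RBCS2* by −0.37. *RCA1*, Rubisco activase, fell to 601, 297 and 328 CPM, against 1300, 1190 and 1070 pre-heat; these last 3 genes were named after their values were seen.

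Starch synthesis genes moved both ways, with 12 of 45 lower and 2 higher and a median of −0.31. With library size alone 8 of them fell, and 1 rose without pre-heat A, recovery B or recovery C. *STA6* (Cre03.g188250), the small subunit of ADP-glucose pyrophosphorylase, which makes the precursor of starch, had 168, 162 and 178 CPM at recovery 4 h, against 467, 534 and 567 CPM pre-heat, a log2 fold change of −1.62. *SSS2* (Cre03.g185250), a soluble starch synthase, fell by 2.11, to 26.6, 22.5 and 17.7 CPM against 92.2, 104 and 93.2. Of 18 starch degradation genes 1 fell and 2 rose. In photorespiration 1 of 11 genes fell (2 without culture A), *HPR1* (Cre06.g295450), hydroxypyruvate reductase, at 57.4, 44.4 and 43.4 CPM against 125, 143 and 140 pre-heat.

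Genes of the glyoxylate cycle and gluconeogenesis, through which acetate enters sugar synthesis, fell together: 8 of 12 members tested were lower, none was higher, and the median was −1.23. *ICL1* (Cre06.g282800), isocitrate lyase, the first enzyme of the glyoxylate shunt, had 838, 1030 and 1110 CPM at recovery 4 h, against 3680, 4210 and 3950 CPM pre-heat (log2 fold change −1.99). *MAS1* (Cre03.g144807), malate synthase, the next enzyme, had 331, 343 and 417 CPM, against 1450, 1670 and 1700 CPM. *PCK1* (Cre02.g141400), the phosphoenolpyruvate carboxykinase that starts gluconeogenesis, had 244, 360 and 372 CPM, against 1570, 1850 and 1780 CPM, a log2 fold change of −2.42. For these 3 enzymes culture A was the lowest recovery library, the reverse of its place among the carbon transporters. *FBP1* belongs to this list as well.

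Few genes of respiration were called. Of 25 genes of the tricarboxylic acid cycle 3 fell (median −0.50), or 1 with library size alone. Of 59 genes of mitochondrial electron transport 2 fell and none rose (median −0.16; 4 fell without the pre-heat library of A): *MCP28* (Cre15.g641200), a mitochondrial carrier at 18.7, 23.9 and 24.7 CPM against 82, 90.9 and 95.3 pre-heat, and *NDA3* (Cre05.g232200), a type II NADH dehydrogenase at 51.7, 46.8 and 49.7 CPM against 147, 146 and 161.

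Among the remaining genes the rule named, *PHC5* (Cre05.g238650), a pherophorin homolog by its symbol, had 92.3, 57.2 and 63.4 CPM at recovery 4 h, against 469, 516 and 484 CPM pre-heat (log2 fold change −2.79). *FMG1-B* (Cre09.g392867), the major glycoprotein of the flagellar membrane, had 355, 238 and 277 CPM, against 713, 1200 and 1320 CPM (−1.89). Of 61 flagellar genes as a whole, 2 rose and 2 fell (median −0.28), whereas 3 rose and 8 fell without culture A, and 5 rose and 1 fell with library size alone. Without recovery B or recovery C 1 fell. *CAT1* (Cre09.g417150), a catalase, fell by 1.33; of 60 genes of peroxide and superoxide scavenging 6 fell and 1 rose (median −0.41; 2 fell with library size alone, and none rose without pre-heat C), and of 68 thioredoxin and protein disulfide isomerase genes 8 fell and 2 rose (median −0.10, or 0.05 with library size alone; 1 rose without pre-heat A or C or recovery B or C). Genes without a symbol also fell far, such as Cre03.g143967, which had 6.68, 4.54 and 3.44 CPM against 92.3, 66.2 and 73.8.

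Genes of DNA replication and cell division were higher at recovery 4 h. The study chose these cell cycle lists as genes that changed at 1 or more time points of these same libraries, so their direction is not independent evidence. Of 22 genes of origin licensing and the replicative helicase, which load and start the DNA-unwinding machinery, 9 rose and none fell. Of all genes 3.73% rose, and the list median was 0.92. In 20 of the 22, against 26.9% of all genes, all recovery libraries lay above all pre-heat libraries. The summed level was 994, 1450 and 1380 CPM at recovery 4 h, against 654, 702 and 603 CPM pre-heat. Without culture A 15 of them rose, and with library size alone 16.

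*ORC1* (Cre10.g455600), the largest subunit of the origin recognition complex, had 18.9, 30 and 31.5 CPM at recovery 4 h, against 10.6, 12.2 and 9.71 CPM pre-heat (log2 fold change 1.31, edgeR adjusted p = 1.71e-05). *MCM10* (Cre07.g351400), which helps to activate the helicase, had 11.8, 17.6 and 16.4 CPM, against 5.01, 6.82 and 6.16 CPM (1.35), and *CDC45* (Cre06.g270250), a subunit of the active helicase, had 53.8, 82.2 and 74.7 CPM, against 33.7, 35.7 and 26.4 CPM (1.14, not called without pre-heat C). The 6 subunits of the helicase ring, *MCM2* to *MCM7*, named after their values were seen, had log2 fold changes of 0.82 to 1.13, of which *MCM3* and *MCM5* were called. As the plot by library shows, culture A was the lowest recovery library for nearly all of these genes.

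**Figure D3:**
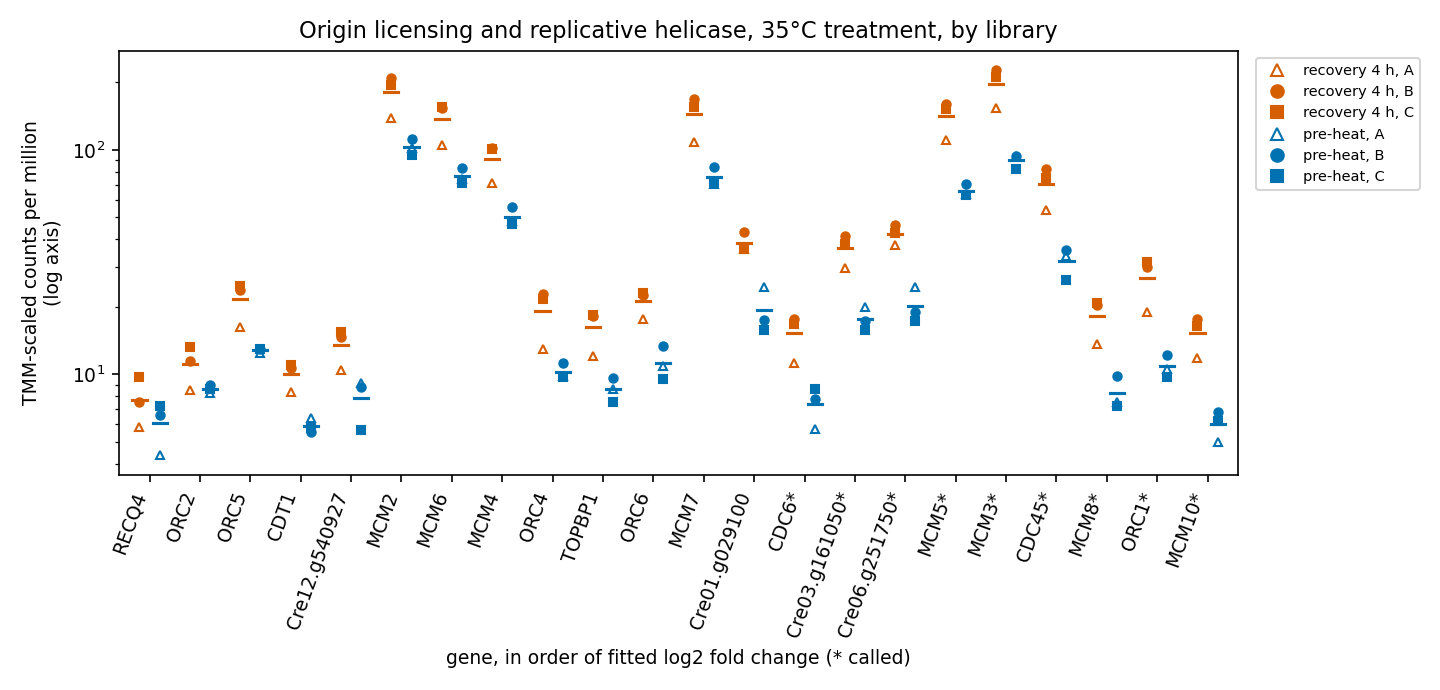
TMM-scaled CPM (log axis) of the 22 tested genes of origin licensing and the replicative helicase in the 6 libraries, recovery 4 h in orange and pre-heat in blue, with group means as bars and called genes starred. Recovery libraries lie above pre-heat libraries in 20 genes, and culture A (open triangles) lies nearest to pre-heat.

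Proteins of the replication fork and of nucleotide supply had 4 of 24 members higher and none lower and a median of 0.80. In 21, against 26.9% of all genes, all recovery libraries lay above all pre-heat libraries. Without culture A 9 rose and with library size alone 9, but 2 without the pre-heat library of C or the recovery library of B. *RIR2* (Cre12.g491050), the small subunit of ribonucleotide reductase, which makes deoxyribonucleotides, had 565, 954 and 782 CPM at recovery 4 h, against 252, 283 and 204 CPM pre-heat (log2 fold change 1.64, edgeR adjusted p = 0.000213). *PCN1* (Cre12.g515850), the sliding clamp of DNA polymerases, had 346, 438 and 400 CPM, against 210, 177 and 143 CPM (1.16).

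Of 16 cyclins, kinases and their regulators 4 rose and none fell (median 0.80), and 6 rose with the replicate letter as a block or with library size alone. *WEE1* (Cre07.g355250), a kinase that restrains entry into mitosis, had 74, 92.9 and 83.1 CPM at recovery 4 h, against 30.8, 28.9 and 23.3 CPM pre-heat (log2 fold change 1.59, edgeR adjusted p = 3.07e-05). *CYCD3* (Cre06.g284350), a D-type cyclin, had 163, 228 and 199 CPM, against 103, 84.9 and 74.9 CPM (1.17), and *ALK2* (Cre04.g220700), an Aurora-like mitotic kinase, had 76.4, 99.5 and 85.7 CPM, against 46.9, 38.4 and 30.9 CPM (1.17). *CYCA1* (Cre03.g207900), an A-type cyclin, had 239, 259 and 208 CPM, against 103, 91.9 and 71.5 CPM (1.40, edgeR adjusted p = 0.0343). Its call was kept in 1 of 6 fits that each left out 1 library. Where it was lost, the edgeR adjusted p ran from 0.0561 (without pre-heat A) to 0.117 (without pre-heat C). Without culture A it was 0.0903.

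Of 12 condensin, cohesin and separase genes, which compact, hold and release sister chromosomes, 3 rose (median 0.95; 7 without culture A or with library size alone, 5 without pre-heat B and 1 without recovery B), among them *SMC2* (Cre02.g086650) at 67, 93.4 and 91.8 CPM against 38.2, 42.5 and 39.6 pre-heat (not called without recovery B, at 0.99). Of 10 genes of the anaphase-promoting complex 2 rose (median 0.55; 4 without culture A, 3 with library size alone and 1 without pre-heat C or recovery B), with its activator *CDC20* (Cre09.g399911) at 50.2, 63.8 and 59.3 CPM against 22.3, 26.3 and 23.5. Of the other 31 cell cycle genes of the study 5 rose (median 0.62; 9 without culture A or with library size alone and 2 without recovery B). No gene of these 3 lists fell.

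Chloroplast division genes were also higher, with 2 of 7 called and a median of 0.66. In all 7, against 26.9% of all genes, the recovery libraries lay above the pre-heat libraries. *MINE1* (Cre17.g720350), which helps to place the chloroplast division ring, had 131, 165 and 151 CPM at recovery 4 h, against 65.9, 66.1 and 50.4 CPM pre-heat (log2 fold change 1.29), and *MINE2* (Cre03.g199450) had 46.4, 74.1 and 61.4 CPM, against 26.9, 27.8 and 24.9 CPM (1.19). None of the 4 tubulin genes tested was called by edgeR or DESeq2, although none overlapped between the groups. All 4 had an edgeR adjusted p under 0.05, with log2 fold changes of 0.7 to 0.91, short of the fold threshold. Of the tubulin genes 1 was called without culture A, 2 with library size alone and 4 by limma on TPM, or 2 with TPM scaled without *LHCBM1*. They had a median of 0.79, with 12300, 12900 and 11000 CPM in sum at recovery 4 h, against 7680, 7000 and 5950 CPM pre-heat.

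Core histones, which package newly made DNA, had the highest median by edgeR, 1.77, over the 26 of 69 genes with enough reads to test. On the log2(TPM + 1) scale of limma, which compresses low values, their median was 0.11 (0.14 with TPM scaled without *LHCBM1*), below that of origin licensing (1.21) and of the replication fork (1.12). By edgeR 5 rose and none fell, and 2 rose without culture A. Most replication-dependent histone messages of Chlamydomonas carry no poly(A) tail and the libraries were made from poly(A) RNA; near-identical copies also share reads, so values of single copies are uncertain. Nearly all the signal came from Cre13.g567700, an H2A gene, with 1280, 1460 and 1180 CPM at recovery 4 h, against 459, 397 and 341 CPM pre-heat (log2 fold change 1.71). *HTV1* (Cre02.g104800) had 40.9, 58.7 and 54.5 CPM, against 23.6, 22 and 21.6 CPM (1.20). The other 3 called genes had few reads: Cre06.g274150, for example, had 9 to 12 reads in a recovery library and 0 to 2 in a pre-heat library (log2 fold change 3.01, or 2.41 to 3.94 over the leave-outs; not called without culture A).

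Outside these lists, the largest rises among genes with a mean TPM of 5 or more were in genes without a symbol. Cre03.g176833, which has no description either, had 62.9, 137 and 127 CPM at recovery 4 h, against 8.91, 7.97 and 9.71 CPM pre-heat (log2 fold change 3.61 ± 0.419 (SE, n = 3 each), edgeR adjusted p = 4.59e-10), the largest rise called. Cre06.g275800 had a log2 fold change of 3.19, with 8 to 15 reads in a recovery library and 0 to 2 in a pre-heat library. Its means were 0.468 and 0.0488 CPM, so the TPM cut, which also depends on gene length, was not a floor on reads. Cre14.g615400 had 11.3, 14.3 and 14.4 CPM, against 1.82, 2.52 and 1.37 CPM (2.81). Of the genes with a symbol, *AIH2* (Cre01.g009350), annotated as an agmatine iminohydrolase of polyamine synthesis, had 17.7, 40.1 and 40.3 CPM, against 6.88, 8.86 and 8.8 CPM (2.00). *TEF13* (Cre12.g550702), annotated to the photosynthetic light reactions without a known role, had 60.2, 113 and 90.4 CPM, against 36.3, 22.2 and 22.1 CPM (1.71). *SRR8* (Cre02.g099350), a scavenger receptor cysteine-rich protein, had 32.1, 43.7 and 45.4 CPM, against 12.6, 14.7 and 15.4 CPM (1.51), and *PWR7* (Cre03.g148700), a PWR motif protein, had 43.9, 35.3 and 39 CPM, against 13.1, 11 and 10.9 CPM (1.76). Culture A was the lowest recovery library for Cre03.g176833, Cre14.g615400, *AIH2*, *TEF13* and *SRR8*.

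Of 35 cell wall genes 3 rose and none fell (median 0.32, but −0.02 without culture A), and with library size alone 7 rose. Culture A decided much of this list: its summed level was 8780 CPM in A, 4040 in B and 3590 in C at recovery 4 h, against 4290, 4650 and 3740 CPM pre-heat, and without culture A only *PHC74* (Cre12.g551977), a pherophorin, was called. *PHC74* had 7.19, 6.22 and 5.48 CPM at recovery 4 h, against 1.99, 2.1 and 2.33 CPM pre-heat. Without pre-heat C 1 gene of the list was called, without recovery B 4 and without recovery C 5. *VSP3* (Cre12.g488450), a vegetative wall glycoprotein, had 15.3, 5.18 and 6.35 CPM, against 4.81, 3.83 and 3.01 CPM, and its log2 fold change was 1.20, or 0.57 without the recovery library of A, where its call was lost, as it was without pre-heat B or C.

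None of the 20 heat shock protein genes of 2 lists was called by edgeR or DESeq2 over all libraries. The 9 small heat shock protein genes had a median of 0.71, and 1 had an unadjusted but none an adjusted p under 0.05 by edgeR. Limma called 2 on TPM and none with TPM scaled without *LHCBM1*. The 11 genes of the HSP70 and HSP90 families had a median of 0.06, and 1 of them had an edgeR adjusted p under 0.05. That gene, *HSP70H*, named after its values were seen, differed by −0.88 and was called lower without culture A (−1.42). Without the recovery library of A alone 1 gene of this list was called lower. *HSP90A* (Cre09.g386750), the cytosolic HSP90, had 1310, 1240 and 1250 CPM at recovery 4 h, against 1330, 1220 and 1090 CPM pre-heat. *HSP22A* (Cre07.g318800), a small heat shock protein, had 0.695, 0.482 and 0.491 CPM, against 0.332, 0.315 and 0.365 CPM, or 12 to 18 reads in a library against 6 to 8, at which depth a moderate difference was not detectable. *CBLP* (Cre06.g278222), the ribosome-associated protein used as the reference in RT-qPCR, had 2130, 2010 and 2020 CPM, against 2310, 2160 and 1970 CPM (log2 fold change −0.07, or 0.08 with library size alone; neither was called).

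Ribosomal protein genes were near their pre-heat levels. None of 62 cytosolic ones was called by edgeR or DESeq2, 1 had an edgeR adjusted p under 0.05 and 1 was called by limma on TPM. The median of the 62 was −0.04 (0.1 with library size alone), with 117000, 102000 and 97200 CPM in sum at recovery 4 h, against 125000, 105000 and 99300 CPM pre-heat. Of 30 chloroplast ribosomal protein genes 1 fell (median −0.05, or 0.09 with library size alone), and of 42 ribosome biogenesis genes 1 fell (median 0.34). No gene was called by edgeR, DESeq2 or limma on TPM among 16 of ammonium assimilation and transport, 6 of nitrate and urea assimilation and 8 of iron assimilation. In these lists 4, 2 and 1 had an unadjusted p under 0.05 by edgeR, and 2, 2 and 0 an adjusted p under 0.05.

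Where recovery 4 h stood in the time course was read from comparisons that share the 3 pre-heat libraries, so the values are given side by side and no overlap between them was taken as a result. Against pre-heat, 706 genes were called at the end of the heat (4.54%; 244 or 1.57% higher and 462 or 2.97% lower) and 1724 at recovery 0 h (11.1%; 777 or 5% higher and 947 or 6.09% lower). At recovery 2 h there were 1310 (8.43%; 501 or 3.22% higher and 809 or 5.21% lower), then the 1100 at recovery 4 h, and 120 at recovery 8 h (0.772%; 26 or 0.167% higher and 94 or 0.605% lower). At recovery 24 h 13 genes were called.

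Origin licensing and chloroplast division genes were low at the end of the heat and at recovery 0 h: 14 of 22 and all 7 were called lower than pre-heat at 24 h of heat, and 15 and 7 at recovery 0 h. Origin licensing genes had medians over pre-heat of −1.48 at the end of the heat, then −1.76, 0.98, 0.92 and −0.51 after 0, 2, 4 and 8 h of recovery. Chloroplast division genes had −1.90, −1.98, 0.93, 0.66 and −0.66 at the same times. The core histone median was highest at recovery 4 h, with −0.84, −0.78, −0.13, 1.77 and 1.51. Most of these 26 genes had few reads, and 5 of them were called higher at recovery 4 h. On the log2(TPM + 1) scale the recovery 4 h median was 0.11, so a later rise of the list as a whole was not shown. Among single genes *WEE1* averaged 27.7 CPM pre-heat and then 10.3, 11.6, 60.5, 83.3 and 19.8 CPM at these times, and *RIR2* averaged 246 CPM pre-heat and then 102, 124, 544, 767 and 169 CPM.

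The lists that fell at recovery 4 h divided by their level in heat. Light-harvesting complex II had medians of 0.28, 0.26, −1.35, −1.18 and −0.42 at the same 5 times. The glyoxylate cycle with gluconeogenesis had 0.70, 0.65, −1.16, −1.23 and −0.37. Both medians were still above pre-heat at recovery 0 h, when the cultures had reached 25°C, and below it from recovery 2 h. At recovery 2 h 10 genes of light-harvesting complex II and 6 of the glyoxylate and gluconeogenesis list were called lower. The carbon concentrating mechanism was already low at recovery 0 h, with medians of −0.35, −1.42, −1.72, −1.49 and −0.29. *ICL1* averaged 3950 CPM pre-heat and then 6620, 6520, 1790, 992 and 2920 CPM, and *LHCBM4* averaged 1040 CPM pre-heat and then 1560, 1370, 152, 74.6 and 83.6 CPM. *CAH1* had its lowest mean of these times at recovery 2 h: it averaged 1830 CPM pre-heat and then 318, 213, 24.4, 172 and 634 CPM.

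**Figure D4:**
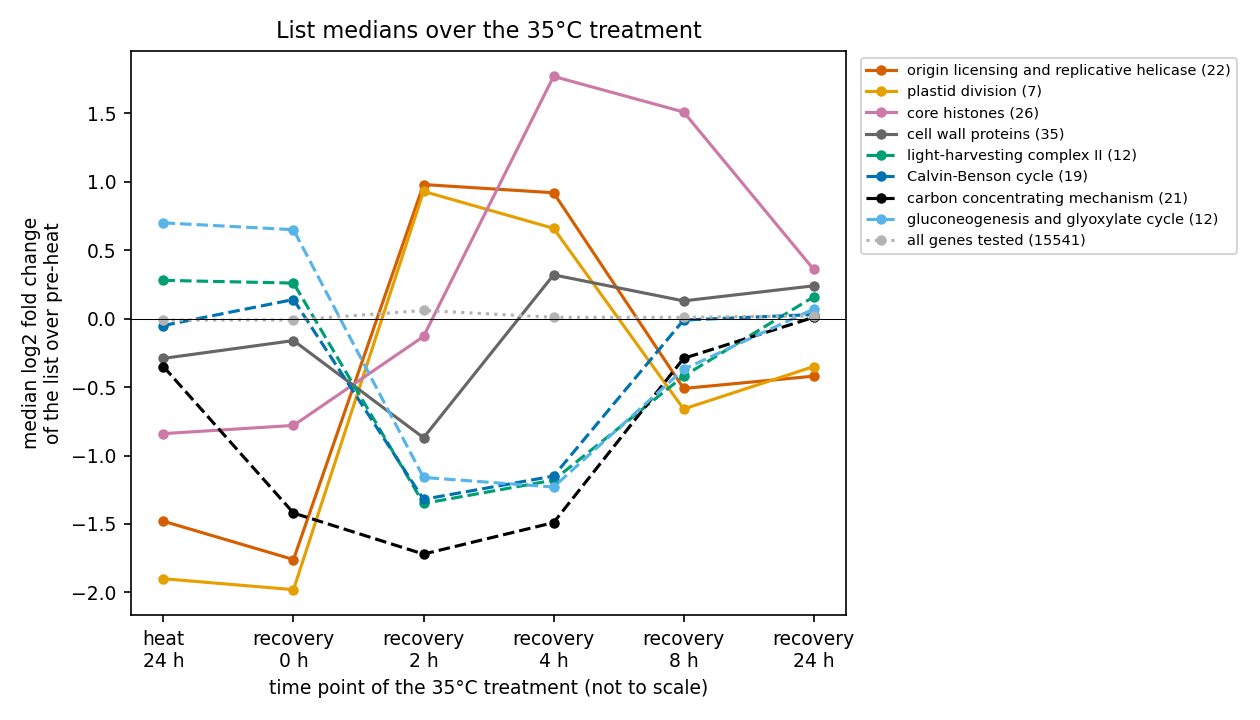
Median log2 fold change over pre-heat of 8 gene lists and of all genes tested at 6 time points of the 35°C treatment (x axis not to scale, y axis log2; solid lines are lists above 0 at recovery 4 h and dashed lines lists below it; every point uses the same 3 pre-heat libraries). Origin licensing genes cross from −1.76 at recovery 0 h to 0.98 at 2 h, while light-harvesting and gluconeogenesis genes drop below 0 between 0 and 2 h. The core histone median peaks at 4 h (1.77), over genes most of which had few reads.

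Direct tests between neighbouring times located the changes. Recovery 4 h differed from recovery 2 h in 618 genes (3.98%), 417 higher (2.68%) and 201 lower (1.29%), so that 67.5% of calls were higher; with library size alone 47.5% were. The higher genes included 15 of 35 cell wall genes, 11 of 25 chlorophyll synthesis genes, 7 of 20 carotenoid synthesis genes and 5 of 26 core histones. *PRX6* (Cre10.g422300), peroxiredoxin Q, had 29.5, 20.8 and 23.4 CPM at recovery 4 h, against 4.43, 3.88 and 4.3 CPM at 2 h (log2 fold change 2.55). *LHCBM8* was still falling, with a log2 fold change of −1.85. *FDH1* (Cre12.g543400), formaldehyde dehydrogenase, had 7.38, 8.51 and 9.07 CPM, against 22.6, 34.1 and 41.3 CPM at 2 h (−1.97).

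Between recovery 8 h and recovery 4 h, 1720 genes differed (11.1%), 701 higher at 8 h (4.51%) and 1019 lower (6.56%), or 40.8% higher, against 21.6% with library size alone. All 24 replication fork genes, 19 of 22 origin licensing genes, all 7 chloroplast division genes and 11 of 16 cyclins and kinases were lower at 8 h, and none of them was higher. Of 19 Calvin-Benson genes 9 were higher at 8 h, as were 11 of 25 chlorophyll synthesis genes and 19 of 61 flagellar genes. *TEF13* had 3.28, 2.06 and 1.81 CPM at 8 h, against 60.2, 113 and 90.4 CPM at 4 h, the largest of the falls the rule named (log2 fold change −5.20). *FRE1* (Cre04.g227400), a ferric-chelate reductase of iron uptake, had 39, 69.7 and 31.2 CPM at 8 h, against 3.05, 4.22 and 3.25 CPM at 4 h (3.73).

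Against the end of the heat, recovery 4 h differed in 2263 genes (14.6%), 1401 higher (9.01%) and 862 lower (5.55%), or 61.9% higher, against 70.1% with library size alone and 90.7% on TPM. Of the origin licensing genes 21 of 22 were higher (median 2.42), as were 23 of 24 replication fork genes and all 7 chloroplast division genes, and 8 of 12 glyoxylate and gluconeogenesis genes were lower (median −1.98). *PWR7* had 43.9, 35.3 and 39 CPM at recovery 4 h, against 1.55, 1.58 and 1.89 CPM at 24 h of heat (log2 fold change 4.55). *HSP22A* showed the opposite, with under 1 CPM at recovery 4 h against 32.9, 27.1 and 16.8 CPM in heat (−5.51), and *FBP1* had 17.7, 16.2 and 13.9 CPM against 251, 430 and 461 CPM in heat (−4.58).

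After 40°C the same recovery time had 3350 genes called against the pre-heat libraries of that treatment (21.6%), 2149 higher (13.8%) and 1201 lower (7.73%). These groups share no library with the 35°C comparison. Of the 579 genes higher after 35°C, 479 were also higher after 40°C, which is 82.7% of the 35°C list and 22.3% of the 40°C list, and 2 were lower. Of the 521 genes lower after 35°C, 384 were also lower after 40°C, or 73.7% of that list and 32.0% of the 40°C list, and 11 were higher. The change after 40°C minus the change after 35°C, tested in 1 model, passed in 2286 genes (14.7%), 1201 higher (7.73%) and 1085 lower (6.98%), or 52.5% higher, against 76.7% with library size alone. By this test 181 of the 521 genes that fell after 35°C changed further after 40°C and 47 differed the other way, and of the 579 that rose 33 changed further and 10 differed the other way.

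The gene groups differed in how far the 40°C change departed. All 10 photosystem I subunits, all 7 genes of light-harvesting complex I, all 5 photosystem II subunits, 9 of 12 genes of light-harvesting complex II and 11 of 19 Calvin-Benson genes were lower after 40°C by the direct test, as were 26 of 30 chloroplast ribosomal protein genes and 19 of 35 cell wall genes. In light-harvesting complex II 2 genes were higher. The carbon concentrating mechanism had 1 gene higher and none lower, the replication fork none in either direction and origin licensing 2 higher and none lower. Of 9 small heat shock protein genes 3 were higher after 40°C. *HSP22E* (Cre14.g617450), a chloroplast small heat shock protein, had 342, 710 and 591 CPM at recovery 4 h after 40°C, against 6.84, 7.94 and 6.52 CPM before it, and *FMG1-B* had 1.32, 3.37 and 3.15 CPM against 610, 717 and 981.

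**Figure D5:**
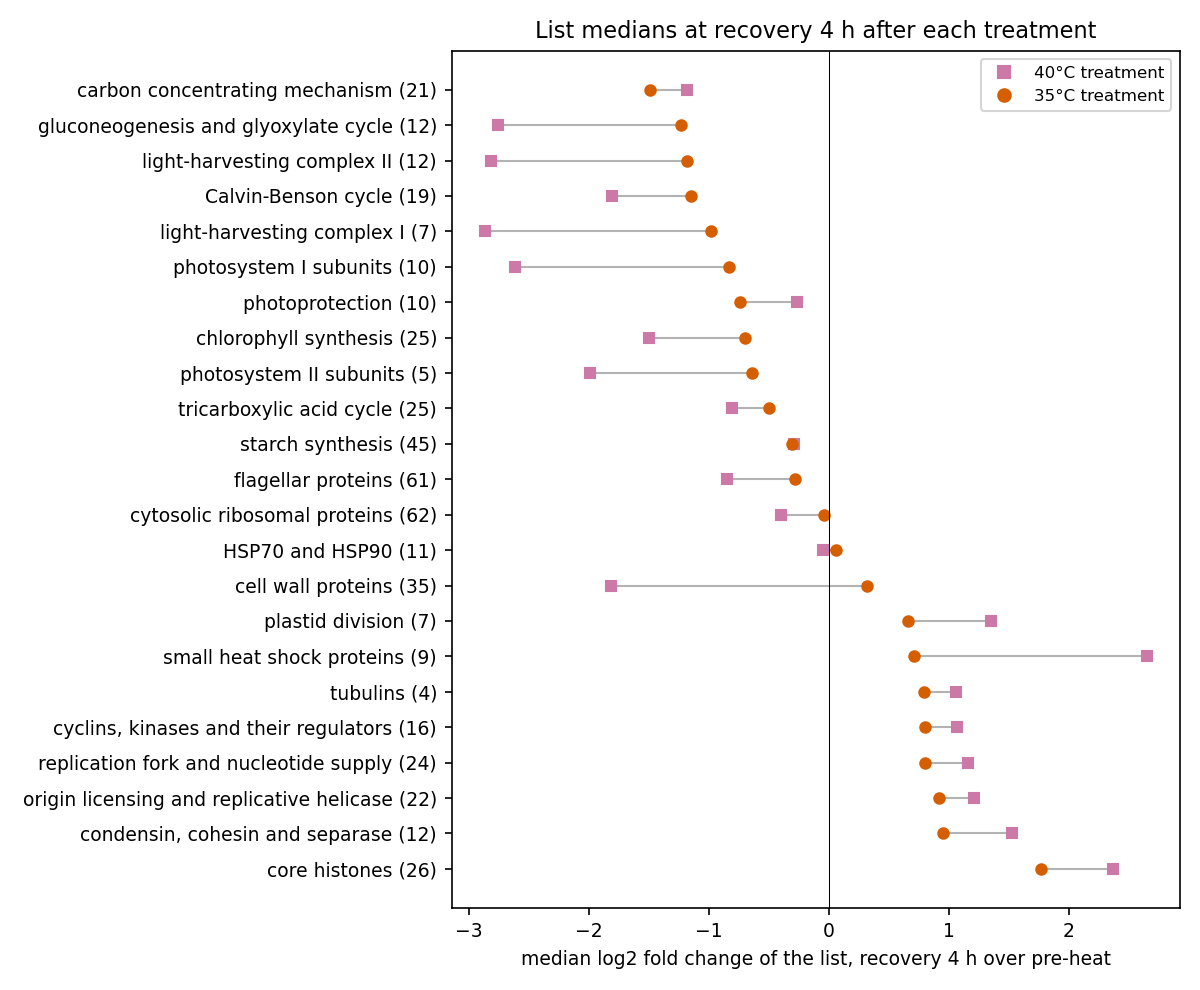
Median log2 fold change at recovery 4 h over the pre-heat libraries of the same treatment, for 23 gene lists after 40°C (squares) and after 35°C (circles), with the number of tested members in parentheses. Light harvesting, photosystem and gluconeogenesis lists lie further below 0 after 40°C, cell wall genes lie below 0 after 40°C and above it after 35°C (0.32, but −0.02 without culture A), and the carbon concentrating mechanism lies below 0 after both (−1.49 after 35°C).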

How the data were processed

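RNA of 90 libraries (30 groups of 3 biological replicates) was selected for poly(A) tails and sequenced; whether a letter A, B or C follows 1 culture through time is not stated. Before deposit the authors cleaned reads (BBDuk, BBMap, FastQC), aligned them with STAR to genome v5.6, dropped reads that fit several loci, and used HTSeq for counts per gene; their versions were not given in the sources used here. One deposited table holds raw counts of 17741 genes, and deposited files, 1 for each sample, hold TPM, which the authors computed from counts and a fixed length per gene scaled to a common sum; TPM enters the call, the rule for named genes and the limma alternative. Libraries held 10872030 to 35917831 counts. At that depth the spread between replicates, not counting, set the precision for genes with many reads, whereas genes with few reads were limited by depth.

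Genes that reached 10 reads in 9 or more libraries were tested (15541; genes removed held 0.00764% of counts, and 279 had no read). Counts were fitted with edgeR 4.0.16 in R 4.3.3 (TMM, 1 mean per group over 90 libraries, quasi-likelihood F-test, standard error from the fold change and F). Calls used the study's thresholds (adjusted p under 0.05, a log2 fold change beyond 1 either way, and mean TPM apart by 1 or more); the difference between treatments had no TPM criterion. On simulated counts of the main comparison, 80% of 100 genes changed 2-fold and 96% of 100 changed 4-fold had an adjusted p under 0.05. Of the 2-fold genes 51% also passed the fold threshold, and 2 unchanged genes passed both. Only genes above a floor of expected reads were changed, counts were drawn independently for each library, and no TPM criterion was applied. These rates therefore do not cover genes with few reads, the shared departure of replicate A or the full call.

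Named genes were the 12 largest rises and 12 largest falls with a symbol and the 4 largest each way with or without one (called, groups not overlapping in TPM, mean TPM of 5 or more), the 4 largest called members of each of 40 lists or the 2 most abundant, the 4 largest each way in each further comparison, and *CBLP*, *HSP22A* and *HSP90A*; not all of them are printed. Lists came from the study's tables and MapMan terms. Members, lists and the comparison were chosen with earlier results of these data known. Same-letter libraries had correlated deviations from their group means (recovery 4 h with pre-heat 0.296 for A, 0.116 for B and 0.271 for C). The letter was therefore also fitted as a block. Recovery 4 h A gave −0.164 with pre-heat B and −0.21 with pre-heat C. B and C were less distinct, since recovery 4 h C gave 0.117 with pre-heat B. It gave 0.346 with recovery 2 h B against 0.162 with recovery 2 h C. After 40°C the same-letter values were 0.11 (A), 0.00939 (B) and 0.00711 (C). Alternatives were other scalings and filters, DESeq2 1.42.0, limma 3.58.1 on log2(TPM + 1), no TPM criterion, only the libraries compared, the block and leaving out each replicate; leaving out culture A, a block within treatment, TPM scaled without *LHCBM1*, and library size alone for the lists were chosen after seeing the data. Promoter motifs were not searched, and no sequences were used here.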

Additional observations from a re-analysis of the deposited data

Results flagged for a closer look

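Each result here was picked because its change at recovery 4 h after 40°C differed from that after 35°C by a direct test in the edgeR model (adjusted p under 0.05 and a difference beyond 1 on the log2 scale); 2286 of 15541 genes did. The treatments were run in different photobioreactors. Values are the log2 change after 40°C minus the log2 change after 35°C.

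Among the genes above, the most negative differences were those of the wall and flagellar surface proteins, −6.45 for *PHC5*, −6.31 for *FMG1-B* and −5.47 for *VSP3*. *PHC5* had 1.16, 0.751 and 0.806 CPM at recovery 4 h after 40°C, against 479, 609 and 566 CPM before it, whereas the 35°C change was −2.79. *VSP3* was the exception in direction, being called higher after 35°C (log2 fold change 1.20). That call was lost without the recovery library of A (0.57) and without pre-heat B or C. The gamete genes *GAS30*, *GAS28* and *GSP1* had differences of −4.96, −4.77 and −2.96; *GAS28* had 7.36, 2.34 and 12.6 CPM after 40°C, against 222, 177 and 253 CPM before it.

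Genes of acetate use fell further after 40°C: the difference was −4.12 for *MAS1*, −3.81 for *PCK1* and −3.64 for *ICL1*, and −4.34 for the mitochondrial carrier *MCP28*. In the Calvin-Benson cycle and photorespiration it was −2.84 for *PGK1*, −1.90 for *GAP3* and −1.60 for *HPR1*. In chlorophyll synthesis it was −2.68 for *CRD1* and −1.15 for *ALAD*. In the photosystem I complex and its antenna it was −2.46 for *PSAG*, −2.34 for *PSAN*, −2.13 for *LHCA1*, −1.90 for *LHCA5* and −1.68 for *LHCA4*. In light-harvesting complex II it was −2.53 for *LHCBM6*, −1.50 for *LHCBM2* and −1.11 for *LHCBM4*. Cre03.g143967 had −1.43.

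Positive differences were found for *HSP22E* (5.45), *TEF13* (3.44), Cre14.g615400 (1.64) and Cre03.g176833 (1.59). *TEF13*, Cre14.g615400 and Cre03.g176833 rose after 35°C as well, and *HSP22E* was not called after 35°C.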

How the results depend on the processing

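The 1100 calls at recovery 4 h became 1874 with no TPM criterion, and the 521 lower genes 1102. On log2(TPM + 1) limma called 1161 higher and 163 lower, or 332 lower with TPM scaled without *LHCBM1*. Against recovery 2 h, 618 calls became 360 with limma and 408 with limma on that other TPM, and against 24 h of heat 2263 became 3597 with no TPM criterion. All other alternatives run kept these counts within 1.5 times, DESeq2 and the replicate block among them (1113 calls with the letter as a block and 1125 with the letter within treatment); of the genes named, the block moved 1 call, that of *ALAD*. Leaving out 1 library at a time gave 858 (without B at recovery 4 h) to 1422 calls (without A at recovery 4 h), 422 to 743 higher and 436 to 679 lower. It gave 538 to 774 against recovery 2 h, 1482 to 2088 between 8 and 4 h, 2107 to 2449 against heat, and 1987 to 2345 for the difference between treatments. With library size alone and with limma on TPM the share of calls that were higher was 47.5 and 59.4% against recovery 2 h (67.5% with TMM) and 21.6 and 12.6% at 8 h against 4 h (40.8%). It was 70.1 and 90.7% against heat (61.9%) and 76.7 and 89.9% for 40°C minus 35°C (52.5%). *CBLP* changed sign with library size alone (0.08), *HSP90A* without the pre-heat library of C (−0.01 to 0.13 over the leave-outs), and *GAS28* in 3 leave-outs (−1.45 to 0.29 over all 6); none was called in any of these fits. The cause of these shifts was not tested. Each group had 3 libraries, and genes with few reads, such as most histones and *HSP22A*, were limited by depth.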
